A study of Mus musculus with 6 samples.

Results

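Adipogenic factors and genes of lipid storage and uptake were examined in bulk RNA-seq of mouse primary myoblasts. The members were 10 genes chosen by symbol: the transcription factors Pparg, Cebpa, Cebpb and Cebpd, the adipokine Adipoq, the lipid droplet proteins Plin1 and Plin2, and the lipid uptake genes Lpl, Cd36 and Fabp4. They are 10 of the 54532 genes in the table, and all 10 were among the 14679 genes that passed the expression filter and were tested. The 6 libraries came from primary myoblasts at day 2, cultured in medium with 10% serum and with FGF at a dose given as 10 µg/ml, and 3 were labelled WT and 3 eIF5A-KO. The study describes primary myoblasts from 3-week-old mice, and its KO mice carried floxed eIF5A alleles and a tamoxifen-inducible Cre driven from Pax7 (Pax7CreERT2/+;eIF5A f/f). For primary myoblasts from tamoxifen-treated KO mice of this age the controls are described as WT littermates, while elsewhere in the study the control genotype is given as Pax7CreERT2/+ and as Pax7+/+;eIF5A f/f, so that whether the WT cells carried Cre is not settled. Deletion in this model is limited to cells that express Pax7 and their descendants, and other cells in a culture would keep the gene.

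PPARγ, the product of Pparg, is the nuclear receptor that drives fat cell differentiation, and the C/EBP factors act with it: C/EBPβ and C/EBPδ are induced early and C/EBPα later. Mature fat cells secrete adiponectin and coat their lipid droplets with perilipin 1, whereas perilipin 2 coats droplets in most cell types. Skeletal muscle cultures can hold fibro-adipogenic progenitors, which can become fat cells, beside the myoblasts, and endothelial cells, which also use CD36 and FABP4 to handle fatty acids.

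Library depth ran from 16281216 to 17734551 reads counted on genes. The targeted transcript, Eif5a, was at 1603, 986 and 1238 CPM in WT replicates 1 to 3 and at 1364, 1459 and 1059 CPM in the libraries labelled eIF5A-KO (CPM are read counts relative to library size, scaled with TMM factors). On the log2 scale the difference was 0.02 (95% confidence interval -0.51 to 0.55, adjusted p = 0.993 in edgeR), so that the group is named here by its label. WT replicate 1 had the largest mitochondrial share, 5.75% of its counts, where the others had 2.11% to 3.50%. The labels do not say that libraries of a group came from separate animals, and if they did not, the p-values measure the spread between these libraries alone. In bulk RNA, fewer cells of a type and less RNA per cell cannot be told apart.

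No member passed the test in the comparison of the libraries labelled eIF5A-KO with WT, but the mean levels of Pparg, Cebpb, Plin2 and Lpl were 1.44 to 1.89 times as high as in WT, each with an unadjusted p under 0.05. Cebpa, Cebpd, Cd36 and Fabp4 had estimates nearer 0, and the markers of mature fat cells, Adipoq and Plin1, had estimates below 0 with wide intervals. An adjusted p under 0.05 was found for 0 of the 10 members and for 0.0204% of all tested genes (edgeR). An unadjusted p under 0.05 with a higher level in the libraries labelled eIF5A-KO was found for 4 members, against 2.74% of all tested genes, and with a lower level for 0 members, against 4.02%. The groups did not overlap, with all libraries labelled eIF5A-KO higher, for 3 members (Pparg, Cebpb and Lpl), against 5.68% of all tested genes, and with all of them lower for 0 members, against 6.83%. The criterion of the study, a change over 2-fold with an unadjusted p under 0.05, was met by 0 members and by 1.85% of all tested genes. The log2 fold change was above 0 for 8 members and below 0 for 2, with a median of 0.23, while the median over all tested genes was -0.01 and 48.4% of them were above 0. These shares are descriptions, because the members were chosen with results of these libraries known.

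**Figure D1:**
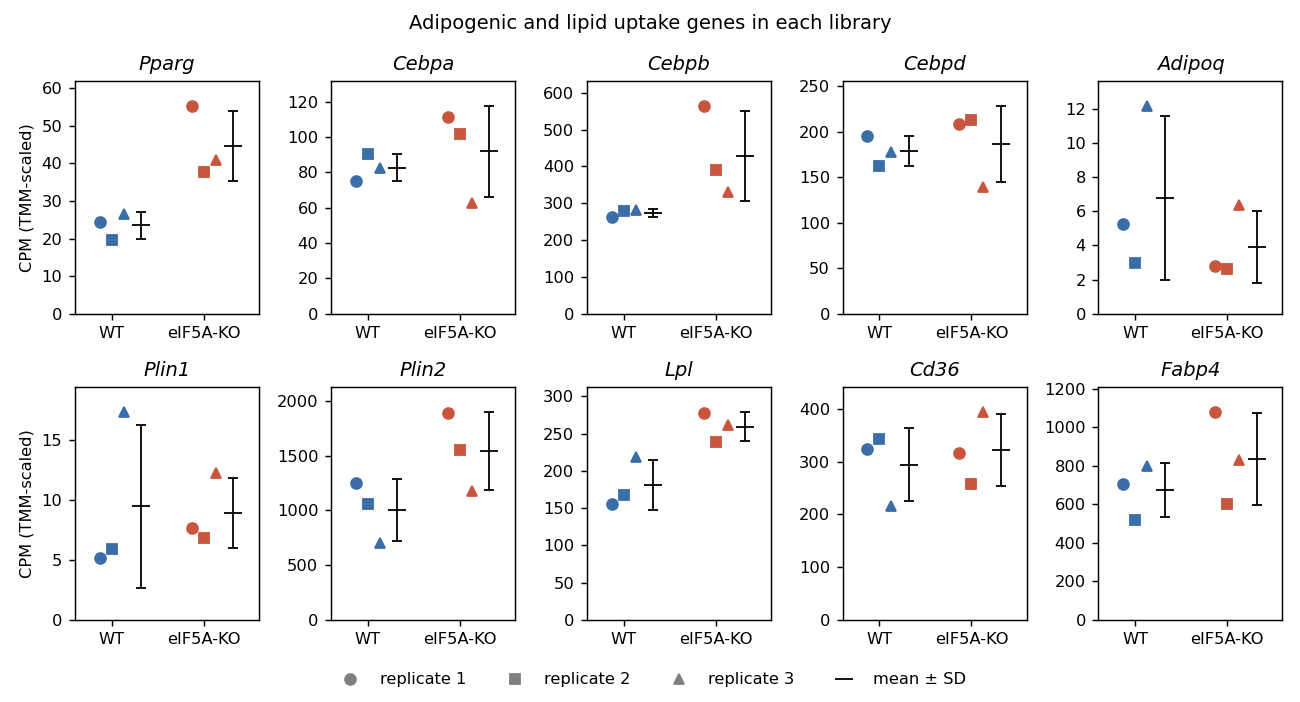
Level of each member in every library, in CPM scaled with TMM factors, on axes that start at 0 and differ between genes. Circles, squares and triangles are replicates 1, 2 and 3, and bars are the mean ± SD of 3 libraries. The groups are apart for Pparg, Cebpb and Lpl, and WT replicate 3 stands above the other libraries for Adipoq and Plin1.

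Among the factors, Pparg (ENSMUSG00000000440, plus strand, chr6:115360951-115490399 in GRCm38, with 7 annotated transcripts) had the smallest p of the members. Its level was 24.5, 19.6 and 26.6 CPM in WT replicates 1 to 3 and 55.3, 37.7 and 40.8 CPM in replicates 1 to 3 labelled eIF5A-KO. All libraries labelled eIF5A-KO lay above all WT libraries, with replicate 1 the highest. WT libraries averaged 23.6 ± 3.57 CPM (SD, n = 3) and those labelled eIF5A-KO 44.6 ± 9.39 CPM (SD, n = 3), from 370 to 904 reads per library. The fitted log2 fold change of Pparg was 0.92, with a standard error of 0.21 and a 95% confidence interval from 0.45 to 1.39. The edgeR test gave an adjusted p of 0.362, from an unadjusted p of 0.00157. By its p the gene was number 59 of the 14679 tested. The adjusted p fell under 0.05 without the expression filter (0.00791) and with DESeq2 (0.0229), and over all 17 alternatives it ranged from 0.00791 to 0.9998. The unadjusted p was under 0.05 in all 17. The antisense gene Gm44079 lies across Pparg, shares 0 exon bases with it and had 0 to 2 counts per library.

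Cebpb (ENSMUSG00000056501, plus strand, chr2:167688915-167690418, 1 exon), whose product comes early in fat cell differentiation, was at 261, 280 and 280 CPM in WT and at 564, 389 and 331 CPM in the libraries labelled eIF5A-KO. The groups did not overlap, WT libraries lay close together, and replicate 1 labelled eIF5A-KO was far above the other libraries. Mean levels were 274 ± 10.8 CPM in WT and 428 ± 121 CPM in the other group (SD, n = 3 each). This gave a log2 fold change of 0.64 (standard error 0.22, interval 0.15 to 1.14, unadjusted p of 0.0155, adjusted p of 0.557 in edgeR). Without replicate 1 labelled eIF5A-KO it was 0.40, with an unadjusted p of 0.0778. Tmem189 overlaps Cebpb on the opposite strand over 312 exon bases, and the strand setting of the counting is not given in the sources used here, so that reads of the shared bases cannot be assigned between them. Tmem189 itself had 795 to 1416 counts per library, where Cebpb had 4044 to 9220, and a log2 fold change of 0.41 (unadjusted p of 0.0701).

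The estimates of Cebpa and Cebpd were near 0. Cebpa (ENSMUSG00000034957, plus strand, chr7:35119293-35121928), the late factor that keeps fat cells differentiated, was at 75.3, 90.5 and 82.2 CPM in WT and at 111, 102 and 62.9 CPM in the libraries labelled eIF5A-KO. Replicate 3 labelled eIF5A-KO was below every WT library and the other replicates were above. Its log2 fold change was 0.15 (standard error 0.22, interval -0.35 to 0.66, adjusted p = 0.952 in edgeR). Cebpd (ENSMUSG00000071637, plus strand, chr16:15887286-15891031), induced early with Cebpb, was at 195, 163 and 178 CPM in WT and at 208, 213 and 139 CPM. Here too replicate 3 labelled eIF5A-KO was the lowest of all libraries. Cebpd had a log2 fold change of 0.06 (standard error 0.20, interval -0.39 to 0.52, adjusted p = 0.978), and it turned negative when either of replicates 1 and 2 labelled eIF5A-KO was left out. The upper ends of both intervals allow a level 1.58 times that of WT for Cebpa and 1.43 times for Cebpd. Cebpd shares 562 exon bases with Spidr, which had 268 to 578 counts per library against 2450 to 3603 for Cebpd, and Cebpa shares 51 with Gm45091, which had 5 to 12.

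The balance among the C/EBP transcripts was described per library from the FPKM of the authors (fragments per kilobase of gene, scaled to the size of the library). Cebpb over Cebpa was 6.08, 5.42 and 5.98 in WT and 8.89, 6.70 and 9.22 in the libraries labelled eIF5A-KO, so that each of the latter was above each WT library. Cebpb over Cebpd was 3.33, 4.28 and 3.93 in WT and 6.75, 4.55 and 5.93, again without overlap. Pparg over Cebpa was 0.290, 0.194 and 0.289 in WT and 0.444, 0.331 and 0.580. These ratios use the values already given and are no further evidence of a difference.

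The fat cell product Adipoq, which encodes the hormone adiponectin, and Plin1, the perilipin of fat cell droplets, were low in every library. Adipoq (ENSMUSG00000022878, plus strand, chr16:23146536-23158028) was at 5.23, 2.97 and 12.2 CPM in WT and at 2.81, 2.61 and 6.35 CPM in the libraries labelled eIF5A-KO, from 44 to 206 reads. WT replicate 3 was the highest, and replicate 3 labelled eIF5A-KO lay above the other WT libraries. For Adipoq the log2 fold change was -0.79 (standard error 0.53, interval -1.98 to 0.40, unadjusted p of 0.170, adjusted p of 0.876 in edgeR), and without WT replicate 3 it was -0.06. Plin1 (ENSMUSG00000030546, minus strand, chr7:79720218-79732903) was at 5.17, 5.94 and 17.4 CPM in WT and at 7.71, 6.81 and 12.3 CPM. The highest library was again WT replicate 3, and the next was replicate 3 labelled eIF5A-KO. Its log2 fold change was -0.09 (standard error 0.45, interval -1.11 to 0.93, adjusted p = 0.986), and it was 0.69 without WT replicate 3. The intervals of both genes include changes of 1.32-fold and 1.91-fold upward and of 0.254 and 0.465 of the WT level downward, so that the direction of neither was resolved.

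Plin2 (ENSMUSG00000028494, minus strand, chr4:86648386-86670060), the droplet protein of most cell types, had estimates above 0 in all alternatives. Its level was 1251, 1059 and 699 CPM in WT and 1891, 1554 and 1176 CPM in the libraries labelled eIF5A-KO. The groups overlapped, since replicate 3 labelled eIF5A-KO lay below WT replicate 1, and both replicates numbered 3 were the lowest of their group. Plin2 averaged 1003 ± 281 CPM in WT and 1540 ± 358 CPM in the libraries labelled eIF5A-KO (SD, n = 3 each). Its log2 fold change was 0.62 (standard error 0.27, interval 0.02 to 1.22, unadjusted p of 0.0451, adjusted p of 0.723 in edgeR). It was 0.42 without WT replicate 3 and 0.82 without WT replicate 1, and the unadjusted p was under 0.05 in 10 of 17 alternatives. The ratio of Plin2 to Plin1 in FPKM was 320, 236 and 53.3 in WT and 325, 302 and 127 in the libraries labelled eIF5A-KO, and thus lowest in both replicates numbered 3. A gene with a stretch of 259 bases at 96.1% identity to Plin2, Gm12551, had 0 to 5 counts per library.

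Of the uptake genes, Lpl was the one whose groups did not overlap. Lpl (ENSMUSG00000015568, plus strand, chr8:68880491-68907448), the lipoprotein lipase that frees fatty acids from circulating lipoproteins, was at 155, 167 and 219 CPM in WT and at 277, 239 and 262 CPM in the libraries labelled eIF5A-KO. Every library labelled eIF5A-KO was above WT replicate 3, the highest of WT. Lpl averaged 180 ± 33.6 CPM and 259 ± 19.5 CPM (SD, n = 3 each). The log2 fold change came to 0.52 (standard error 0.19, interval 0.11 to 0.94, unadjusted p of 0.0193, adjusted p of 0.573 in edgeR). The unadjusted p was under 0.05 in 16 of 17 alternatives and was 0.0644 without replicate 1 labelled eIF5A-KO.

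Cd36 and Fabp4 did not separate the groups. Cd36 (ENSMUSG00000002944, minus strand, chr5:17781690-17888801), a membrane receptor that takes up long-chain fatty acids, was at 325, 344 and 216 CPM in WT and at 316, 258 and 394 CPM in the libraries labelled eIF5A-KO. WT replicate 3 was the lowest and replicate 3 labelled eIF5A-KO the highest library. The log2 fold change was 0.13 (standard error 0.24, interval -0.40 to 0.66, adjusted p = 0.966 in edgeR), and it was below 0 without either of these libraries. Fabp4 (ENSMUSG00000062515, minus strand, chr3:10204088-10208576), which binds fatty acids in the cytoplasm, was at 703, 520 and 798 CPM in WT and at 1078, 600 and 828 CPM. Both replicates numbered 2 were the lowest of their group. Its log2 fold change was 0.31 (standard error 0.26, interval -0.27 to 0.89, adjusted p = 0.910), and with 1 library left out it ran from 0.09 to 0.51.

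**Figure D2:**
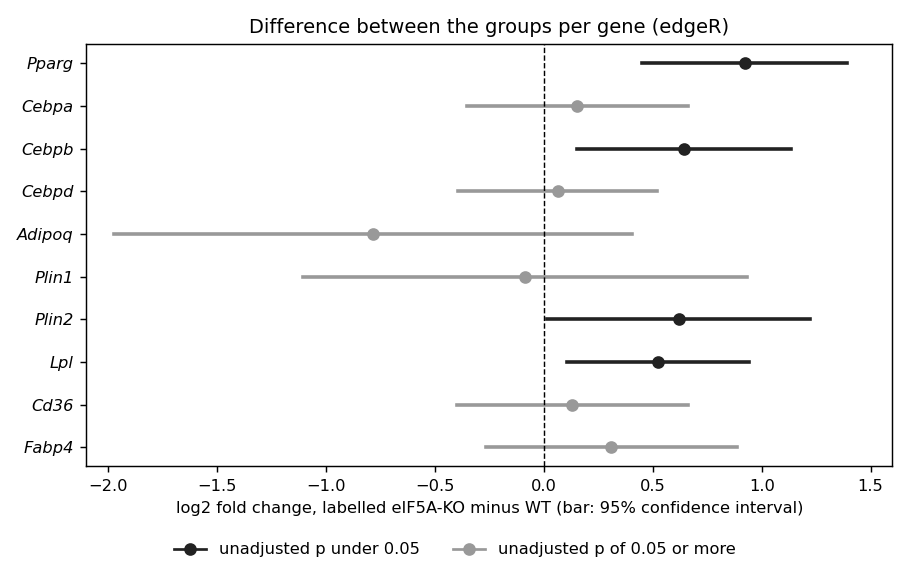
Difference of each member on a log2 scale, labelled eIF5A-KO minus WT, from edgeR. Points are estimates and bars are 95% confidence intervals. The intervals of Pparg, Cebpb, Plin2 and Lpl lie above 0, where no adjusted p was under 0.05, and the interval of Adipoq is the widest.

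Replicate 1 labelled eIF5A-KO held the highest level of 6 of the 10 members. Without that library, 1 member, Pparg, kept an unadjusted p under 0.05, against 4 with all libraries, and the share of all tested genes with one was 3.88% against 6.76%. Exact permutation tests of the group means, two-sided and on FPKM, gave p = 0.1 for Pparg, Cebpb and Lpl, the smallest p that 3 libraries against 3 allow. They gave 0.2 for Plin2 and from 0.4 to 1.0 for the other members.

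**Figure D3:**
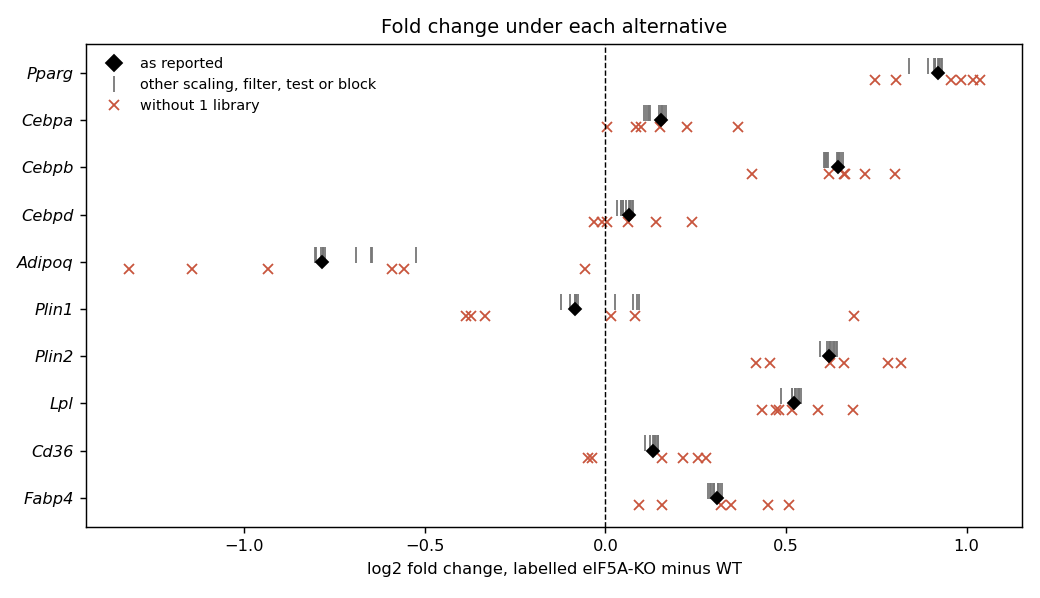
Difference of each member, labelled eIF5A-KO minus WT on a log2 scale, with all 6 libraries as reported (diamonds), under other scalings, filters, tests or the block (grey ticks) and with 1 library left out (crosses). Adipoq spans -1.32 to -0.06 and Plin1 -0.38 to 0.69 over the crosses, while Pparg stays between 0.75 and 1.04.

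Promoter sequences are shown for the 3 members with an unadjusted p under 0.05 and an entry in the table of RefSeq promoters, and for Adipoq, a fat cell product whose estimate lay on the other side of 0. The table, on GRCm38.p6, had windows for 7 of the 10 members, and Cebpd, Lpl and Fabp4 were not in it. Each sequence is the 250 bases before an annotated start, written 5′ to 3′ on the strand of the gene, with matches in capitals. The motifs searched on both strands were the CCAAT box (CCAAT, or ATTGG on the other strand), the TATA box (TATAAA), the C/EBP palindrome (TTGCGCAA) and a direct repeat of AGGTCA with 1 base between (DR1), the element read by PPARγ with its partner RXR. The windows are chr6:115421816-115422065 for Pparg, which is next to the start of its principal transcript, chr2:167688665-167688914 for Cebpb, chr4:86670060-86670309 for Plin2, on the minus strand and with 1 exon base, and chr16:23146286-23146535 for Adipoq.
Pparg: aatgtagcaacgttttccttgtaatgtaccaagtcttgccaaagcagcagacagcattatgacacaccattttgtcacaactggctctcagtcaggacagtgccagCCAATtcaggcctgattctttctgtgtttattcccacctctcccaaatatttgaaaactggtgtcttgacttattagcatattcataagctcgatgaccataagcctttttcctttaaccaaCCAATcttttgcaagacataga
Cebpb: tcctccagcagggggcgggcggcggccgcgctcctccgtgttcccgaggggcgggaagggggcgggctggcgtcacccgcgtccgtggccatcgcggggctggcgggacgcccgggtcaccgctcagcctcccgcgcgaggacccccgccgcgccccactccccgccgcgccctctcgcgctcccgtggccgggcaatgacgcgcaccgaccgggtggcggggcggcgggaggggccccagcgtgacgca
Plin2: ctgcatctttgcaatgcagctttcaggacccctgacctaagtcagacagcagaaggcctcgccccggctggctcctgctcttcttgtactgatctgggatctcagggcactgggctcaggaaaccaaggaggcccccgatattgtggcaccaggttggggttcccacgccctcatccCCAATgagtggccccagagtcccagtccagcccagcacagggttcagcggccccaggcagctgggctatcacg
Adipoq: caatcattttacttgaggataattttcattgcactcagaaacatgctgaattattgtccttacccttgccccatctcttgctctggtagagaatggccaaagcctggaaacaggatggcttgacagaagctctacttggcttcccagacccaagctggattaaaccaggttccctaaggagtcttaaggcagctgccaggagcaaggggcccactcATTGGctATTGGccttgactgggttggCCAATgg

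These windows differ in base composition. The Cebpb window had a GC content of 81.6% and 41 CpG dinucleotides, where the median over 32851 windows was 52.4% and 6, and it held none of the motifs. Plin2 had 61.6% and 6 CpG with a CCAAT box 73 to 69 bases before the start. The Pparg window shown had 40.8% and 2 CpG, with CCAAT boxes 144 to 140 and 22 to 18 bases before the start, while the windows at its other starts had 82.4% with 38 CpG and 63.6% with 12. Adipoq, at 48.8% with 0 CpG, had 3 within 34 bases of the start. A CCAAT box was found in 33.8% of all windows and a TATA box in 12.4%, and of the members' 9 windows those of Cebpa and another start of Pparg held a TATA box. The C/EBP palindrome was in 0.164% of all windows and DR1 in 0.0335%, and no window of a member held either.

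How abundant the members were relative to each other can be read per length. In the FPKM of the authors, mean WT levels ran from 282 ± 78.0 FPKM for Plin2 (SD, n = 3) through 180 ± 7.76 for Cebpb, 148 ± 31.3 for Fabp4, 81.1 ± 18.9 for Cd36, 47.1 ± 4.16 for Cebpd, 31.0 ± 2.92 for Cebpa, 17.0 ± 3.23 for Lpl and 7.89 ± 1.20 for Pparg to 4.87 ± 3.45 for Adipoq and 2.02 ± 1.46 for Plin1. The order of the means was the same in the libraries labelled eIF5A-KO, from 436 FPKM for Plin2 to 1.91 for Plin1. Of the 9 neighbours in this order, the ranges of 3 overlapped in WT (Cebpb with Fabp4, Pparg with Adipoq, and Adipoq with Plin1) and of 5 in the libraries labelled eIF5A-KO. Droplet perilipin 2 and the early factor Cebpb were thus at the top, and the fat cell genes Adipoq and Plin1 at the bottom.

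The order at the top depended on the length used. The gene length in the table equalled the union of all annotated exons for all 10 members, which for Fabp4 was 4489 bases against 896 in its longest principal transcript, a ratio of 5.01, and for Lpl 10478 against 4115, a ratio of 2.55. Per kilobase of the longest principal transcript, Fabp4 became the first, with 743 ± 157 in WT and 926 ± 263 in the libraries labelled eIF5A-KO (SD, n = 3), ahead of Plin2 with 525 and 810 and of Cebpb with 180 and 283. Lpl stood at 43.4 and 62.6, and Pparg at 13.2 and 25.1. The ranges of Fabp4 and Plin2 overlapped in both groups on this scale. The length does not enter the comparison between groups, since it is the same in every library.

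**Figure D4:**
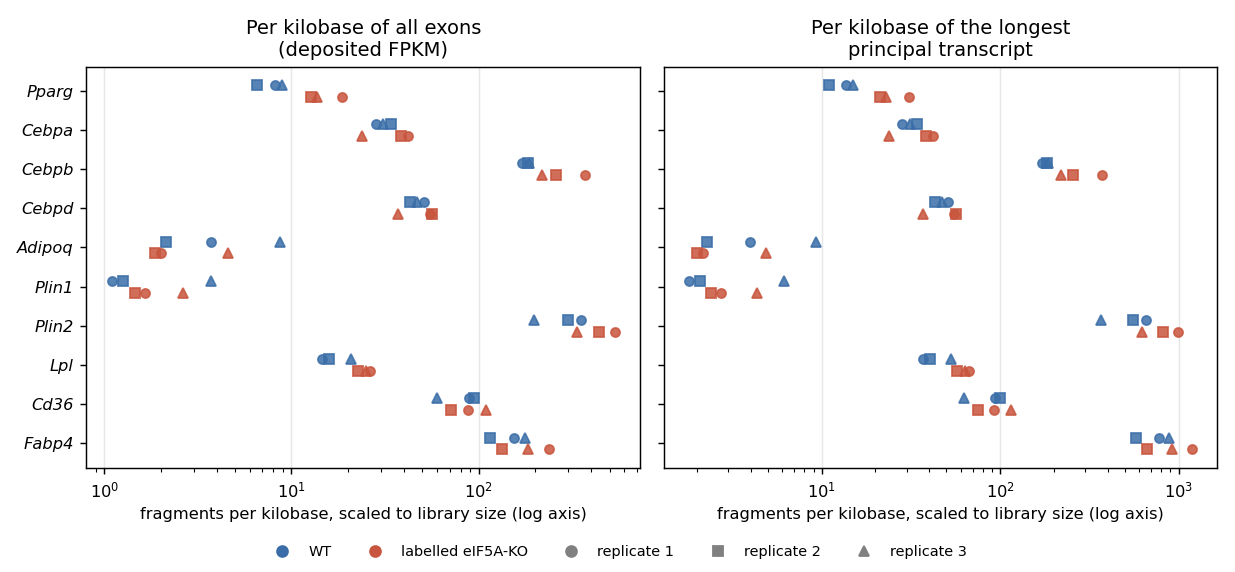
Level of each member in every library as fragments per kilobase relative to library size, on a log axis, with the length of all exons (left) or of the longest principal transcript (right). Colours mark the groups and symbols the replicates. Fabp4 moves from below Plin2 and Cebpb to first place in WT, and Adipoq and Plin1 are lowest on both scales.

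Other regulators of fat cell formation were read from a list. Of 25 listed adipogenic regulators without the members, 24 were tested: 0 passed the adjusted threshold, 4 had an unadjusted p under 0.05 with a higher level and 0 with a lower one, and the median log2 fold change was 0.22. WT replicate 1, the library with the largest mitochondrial share, was the lowest for 14 of the 24, and replicate 1 labelled eIF5A-KO the highest for 11; the part of these libraries in the shift was not tested. The largest estimate among the 4 was that of Fgf10, a growth factor of fat tissue development, at 3.55, 1.33 and 2.30 CPM in WT and at 5.93, 4.09 and 3.85 CPM (log2 fold change 0.96, unadjusted p of 0.0337, adjusted p of 0.675 in edgeR), without overlap. Bmp4, a growth factor that commits progenitors to the fat lineage, was at 12.9, 13.3 and 13.5 CPM in WT and at 20.8, 17.0 and 20.5 CPM in the libraries labelled eIF5A-KO, without overlap (log2 fold change 0.55, unadjusted p of 0.0113, adjusted p of 0.520 in edgeR). Egr2, an early factor also called Krox20, was at 50.8, 55.6 and 41.9 CPM and at 93.2, 73.2 and 57.2 CPM (log2 fold change 0.59, unadjusted p of 0.0219, adjusted p of 0.609). Inhibitors of fat cell formation also had a median above 0, at 0.20: of 13 tested, 0 passed, 1 had an unadjusted p under 0.05, and WT replicate 1 was the lowest library for 9. This was Ddit3, the stress-induced C/EBP family member CHOP, with a log2 fold change of 0.58 (unadjusted p of 0.0348, adjusted p of 0.679). Klf2, a repressor of Pparg, had one of 0.56 (unadjusted p of 0.0563, adjusted p of 0.767).

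Lists of lipid droplet, uptake and oxidation genes held no gene past either threshold. Of 21 tested droplet genes, 13 had estimates above 0 and 8 below, with a median of 0.05, and 0 had an adjusted or an unadjusted p under 0.05. Fitm1, which helps form droplets in muscle, had a log2 fold change of -0.80 (unadjusted p of 0.0644, adjusted p of 0.791 in edgeR), and Pnpla2, the lipase that starts breakdown of droplet fat, one of 0.41 (unadjusted p of 0.0978, adjusted p of 0.815). For lipid uptake, 23 genes were tested, 16 above and 7 below 0 with a median of 0.17, again with 0 past either threshold, and WT replicate 1 was the lowest library for 11. Apoe, an apolipoprotein, had a log2 fold change of 0.69 (unadjusted p of 0.0516, adjusted p of 0.738), and Gpihbp1, the anchor of lipoprotein lipase on capillary endothelium, one of 0.63 (unadjusted p of 0.0689, adjusted p of 0.794). Of 22 tested fatty acid oxidation genes, 0 passed either threshold and the median was 0.08. The adjusted count of each of these lists was also 0 with DESeq2, with limma-voom and with each library left out. Cpt1c, a carnitine palmitoyltransferase family member, had a log2 fold change of 0.39 (unadjusted p of 0.124, adjusted p of 0.847).

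The marker lists of mature fat cells and of other cell types were read in the same libraries. Over the 16 tested mature fat cell genes the median was -0.16 on the log2 scale, with 5 above 0 and 11 below, and 0 with an unadjusted p under 0.05. The summed level of all 20 listed genes, tested or not, was 106 to 275 CPM in WT and 127 to 173 CPM in the libraries labelled eIF5A-KO. WT replicate 3 was the highest library for 12 of the 16, Adipoq and Plin1 among them, and WT replicate 1 the lowest for 10. Cfd, the secreted protease adipsin, was at 5.69, 15.8 and 57.2 CPM in WT and at 5.69, 10.4 and 15.8 CPM (log2 fold change -1.30, unadjusted p of 0.0932, adjusted p of 0.815 in edgeR), and Aqp7, the glycerol channel of fat cells, had a log2 fold change of 0.63 (unadjusted p of 0.107, adjusted p of 0.819). Ucp1 and Cidea, markers of brown fat cells, did not pass the expression filter. The part of these cells in the values of Adipoq and Plin1 was not tested.

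Myoblast markers were present in every library, with Myod1 at 264, 550 and 437 CPM in WT and at 349, 272 and 196 CPM in the libraries labelled eIF5A-KO, and Myf5 between 8.62 and 20.3 CPM. All 12 myoblast markers were tested, with 3 above 0 and 9 below, a median of -0.45 and 0 with an adjusted p under 0.05. The 1 with an unadjusted p under 0.05 was Pax7, the gene that drives the Cre, at 12.9, 51.7 and 25.2 CPM in WT and at 13.0, 8.29 and 10.6 CPM in the libraries labelled eIF5A-KO (log2 fold change -1.50, unadjusted p of 0.0069, adjusted p of 0.484 in edgeR). The groups overlapped for Pax7, and the list summed to 1262 to 2196 CPM in WT and 1046 to 1887 CPM. Markers of other cell types were present as well. Pdgfra and Ly6a, which mark fibro-adipogenic progenitors, ranged from 302 to 433 CPM and from 618 to 852 CPM over the 6 libraries, and the 11 genes of that list summed to 2615 to 4018 CPM in WT and 2904 to 3551 CPM. The groups overlapped for Pdgfra and Ly6a and for the sum of that list. Pecam1 and Cdh5 of endothelial cells ranged from 282 to 820 CPM and from 244 to 819 CPM, and all 12 endothelial markers had estimates above 0 (median 0.39, 0 with an adjusted and 1 with an unadjusted p under 0.05). Their sum was 1631 to 3376 CPM in WT and 2862 to 4260 CPM, and WT replicate 1 was the lowest library for 11 of the 12.

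Mural cell markers were the one list whose sum did not overlap between the groups, at 371 to 629 CPM in WT and 723 to 785 CPM in the libraries labelled eIF5A-KO, and all 8 had estimates above 0 (median 0.52). WT replicate 1 was the lowest library for 6 of the 8, and the sums of the other WT libraries were 629 and 489 CPM. An unadjusted p under 0.05 was found for 4 of the 8 and an adjusted one for 1, and the groups did not overlap for 4, all of them higher in the libraries labelled eIF5A-KO. Besides Pdgfrb and Myh11, these were Cspg4 (log2 fold change 0.77, unadjusted p of 0.0199) and Kcnj8 (log2 fold change 0.50, unadjusted p of 0.0283). Rgs5 had a log2 fold change of 0.17 (unadjusted p of 0.551) and Pdgfrb, at 162, 247 and 218 CPM against 417, 368 and 318 CPM, one of 0.81 (unadjusted p of 0.00323, adjusted p of 0.398 in edgeR). Myh11, a smooth muscle myosin, was the one listed gene that rose with an adjusted p under 0.05 (log2 fold change 1.52, adjusted p = 0.0486), and it lost that call under 6 other scalings, filters or tests and without each of 5 single libraries. Of the macrophage markers, Adgre1 lay between 0.768 and 3.50 CPM and Csf1r between 2.38 and 4.83 CPM, while Lyz2 reached 75.0 CPM and Cd68 60.8 CPM. Of 11 tested, 0 passed the adjusted threshold and 1, Cd68, the unadjusted one (log2 fold change 0.84, unadjusted p of 0.0338 in edgeR). The sum of all 12 listed macrophage markers, tested or not, was 57.5 to 135 CPM in WT and 56.3 to 166 CPM. No marker of any list was at 0 in all libraries. Mural sums, like Pparg, Cebpb and Lpl, were higher in every library labelled eIF5A-KO than in every WT library. Within the groups, some orders matched and others did not. WT replicate 1 had the lowest mural sum, Cebpb and Lpl of WT, and WT replicate 2 the highest mural sum and the lowest Pparg. Of the libraries labelled eIF5A-KO, replicate 2 had the lowest mural sum, Pparg and Lpl. Replicate 3 of that group had the highest mural sum and the lowest Cebpb. The part of mural or endothelial cells in the levels of these members was not tested.

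**Figure D5:**
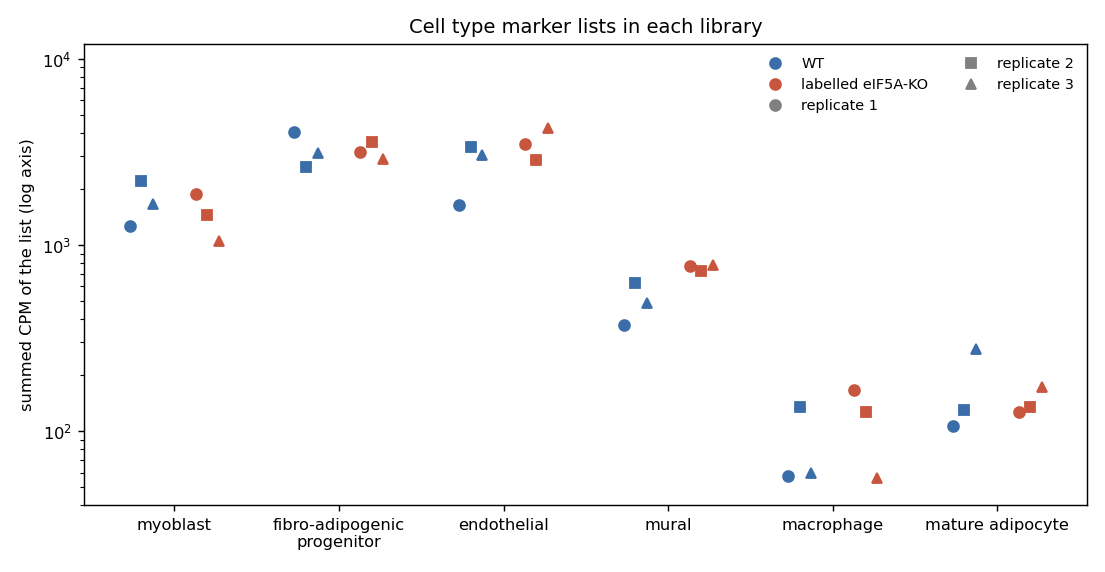
Summed level of each cell type marker list in every library, in CPM scaled with TMM factors on a log axis. Colours mark the groups and symbols the replicates. Only the mural sums of the groups lie apart, and the mature fat cell sum is highest in WT replicate 3.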

How the data were processed

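RNA-seq libraries of primary myoblasts, 3 WT and 3 labelled eIF5A-KO, were analysed. The authors extracted RNA with TRIzol, made libraries with an NEBNext Ultra kit, mapped reads to mm10 with HISAT and deposited raw read counts per gene. The HISAT version, the annotation release and the counting rules are not given in the sources used here. The authors also deposited FPKM, and dividing them by count and length gave 1 denominator per library for all genes.

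The counts were compared with edgeR 4.0.16 in R 4.3.3: default expression filter, TMM factors, quasi-likelihood F test and Benjamini-Hochberg adjustment over 14679 genes, with 0.05 as the threshold and no covariate. CPM were scaled with these factors, errors given with n are SD, and confidence intervals are at 95%. Exact permutation tests were run on FPKM and CPM. The test was checked on simulated counts with 3 libraries per group. It called 102 of 114 genes changed by 2 on the log2 scale and 28 of 86 changed by 1. Changes of the smaller size were thus mostly missed, and 15 unchanged genes were called. Gene positions, transcripts and copies (at least 200 bases at 90% identity, blastn 2.17.0) came from GENCODE M21. The members and lists were chosen with earlier results of these data known. Named beside the members were, in each pathway list, the 2 tested genes with the smallest p and a mean of at least 1 CPM, and the first 2 of each cell type list; other genes named were chosen after their values were seen. A gene that this rule names in the oxidation list is not reported here. Ddit3 has 2 identifiers, and the one with counts was used.

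As alternatives the fit was repeated with size factors of DESeq2, with upper-quartile factors, with library size only, and with library sizes that left out mitochondrial transcripts and the top 10 genes. Others were no filter, a minimum of 10 counts per library, DESeq2 1.42.0, voom and log2(FPKM + 1) or log2(FPKM + 0.1) in limma 3.58.1, the replicate number as a block, and each library left out. Levels per principal transcript were added after seeing the data.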

Additional observations from a re-analysis of the deposited data

How the results depend on the processing

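Of 170 estimates for the 10 members under 17 alternatives, 157 kept direction and side of the threshold, 2 passed it and 11 changed sign. Those 11 were Plin1 with voom (0.0940), with log2(FPKM + 1) (0.0269) or log2(FPKM + 0.1) (0.0862) in limma, with the replicate block (0.0759) and without WT replicate 3 (0.687) or replicate 1 (0.0151) or 2 (0.0818) labelled eIF5A-KO; Cebpd without replicate 1 (-0.0106) or 2 (-0.0329) labelled eIF5A-KO; and Cd36 without WT replicate 3 (-0.0493) or replicate 3 labelled eIF5A-KO (-0.0368). With 1 library left out the log2 fold change ranged from 0.75 to 1.04 for Pparg, 0.00 to 0.37 for Cebpa, 0.40 to 0.80 for Cebpb, -0.03 to 0.24 for Cebpd, -1.32 to -0.06 for Adipoq, -0.38 to 0.69 for Plin1, 0.42 to 0.82 for Plin2, 0.43 to 0.69 for Lpl, -0.05 to 0.28 for Cd36 and 0.09 to 0.51 for Fabp4.

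The count of members past the adjusted threshold was 1, Pparg, without a filter and with DESeq2, and 0 with each library left out. The count of members without overlap was 3 to 7 with 1 library left out, and 7 without replicate 3 labelled eIF5A-KO: 6 higher, against 14.1% of all tested genes, and 1 lower, against 13.3%. Without each of the others it was 3 or 4, all higher, against 7.71% to 12.4% of all tested genes higher and 8.82% to 13.6% lower. Over all genes, 1 higher and 2 lower became 0 and 0 with DESeq2's size factors, library size alone, at least 10 counts, limma-voom and both FPKM fits (992, 966, 907, 961, 980 and 980 genes at an unadjusted p under 0.05), 65 and 184 without a filter, and 19 and 73 with DESeq2. With 1 library left out they were 0 to 8 and 0 to 48, the most without WT replicate 1. Mural markers past the threshold were 1, and 0 with DESeq2's size factors, library size alone, limma-voom and both FPKM fits; with 1 library left out they were 0 to 1, as were myoblast markers (1 without WT replicate 1). The cause was not tested.

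Whether replicate numbers pair the samples was not settled. Correlations of deviations from the group means were 0.084, -0.160 and 0.105 for same-numbered libraries. For libraries with different numbers they ran from -0.267 to 0.269. With the replicate number as a block, 7 genes were higher and 17 lower, 0 of them members, and 5 members, Adipoq included (unadjusted p of 0.0483 in edgeR), had an unadjusted p under 0.05, against 5.96% of all tested genes. Adipoq and Plin1 rest on the fewest reads of the members, 44 to 294 per library.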
